A study of Mus musculus with 3 samples.

Results

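The hair follicle placode genes Shh, Edar, Lef1, Sox9, Ptch1, Gli1, Wnt10b, Lhx2, Dkk4 and Foxi3 were examined for occupancy by the histone deacetylase HDAC3 and the zinc finger factor KLF4. A binding peak was counted for 1 of the 10 genes when the protein-coding gene end nearest to the peak centre belonged to that gene, or when the centre lay within 1 kb of its ends. This gave 98 of the 57936 deposited HDAC3 peaks and 48 of the 47155 deposited KLF4 peaks. No peak entered by the 1 kb window alone. The study had precipitated chromatin from the back skin's epidermal layer (dorsal epidermis) of wild-type E18.5 mouse embryos, with 1 library for HDAC3 (Abcam ab7030), 1 for KLF4 (R&D AF3158) and 1 input library made without antibody. All libraries shared this wild-type tissue, and the labels name no treatment. Each peak list had been called against that same input, sequencing gave 56787485 tags for HDAC3 and 61432711 for KLF4, and with 1 library per antibody no difference was tested. Peak height is given as the caller's score, a tag number, together with its percentile, the share of peaks in the same list that score the same or lower. Heights are compared within a list and not between the factors.

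Hair follicles begin as placodes, thickenings of the embryonic epidermis. Wnt signals acting through beta-catenin and LEF1, and ectodysplasin acting through its receptor EDAR, specify the placode, and Sonic hedgehog made by placode cells drives its downgrowth. SOX9 and LHX2 mark cells that build the follicle and later form its stem cells. HDAC3 works inside the NCoR/SMRT corepressor complexes, and KLF4 drives late differentiation of the surface epidermis. The tissue was profiled in bulk, so a peak present in few cells and a weak peak present in many cannot be told apart.

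HDAC3 lay at the ends of more placode genes than KLF4, with few genes in either count. Of the 10 genes, 4 (Shh, Lef1, Sox9 and Wnt10b) had an HDAC3 peak centred within 1 kb of either annotated end, against 18.9% of 21887 protein-coding genes. A KLF4 peak lay there at 1 gene, Ptch1, against 23.1% of all genes, and both factors at 0 genes, against 10.3%. With 10 genes, the counts for HDAC3, for KLF4 and for both factors are too small to set apart from these shares. The other 5 genes (Edar, Gli1, Lhx2, Dkk4 and Foxi3) had neither. With any distance allowed, 9 of the 10 were the nearest gene of an HDAC3 peak, Gli1 being the exception, and 10 of a KLF4 peak. Those shares were 64.8% and 59.2% over all protein-coding genes. They depend on the length of sequence nearest to a gene, which has a median of 46317 bp over all protein-coding genes. Among the placode genes it ran from 13744 bp at Gli1 to 762048 bp at Sox9, and most were above that median.

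The 7 HDAC3 peaks at placode gene ends lacked KLF4. Their distances to the nearest KLF4 centre ran from 2539 bp at Wnt10b to 36360 bp at Shh. Peaks sharing at least 1 bp were taken to overlap, and by that rule 40.9% of the 4039 HDAC3 peaks at ends of protein-coding genes overlapped KLF4. These counts depend on the window, and a window of 5 kb gives 7 genes with HDAC3, 5 with KLF4 and 3 with both. The shares of all genes given above are for 1 kb, would be larger at 5 kb, and are no measure for these counts. At Ptch1 a KLF4 peak of score 78 was centred 995 bp from the gene's end and an HDAC3 peak of score 41 was centred 58 bp further in, at 1053 bp, so a window of 1.1 kb puts both factors at Ptch1.

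Among all their peaks, the placode genes shared fewer HDAC3 sites with KLF4 than the list did. An overlap with KLF4 was found for 15 of 98 HDAC3 peaks, 15.3% (exact Clopper-Pearson interval at 95%, 8.83 to 24.0, counting error only), against 25.8% of the whole HDAC3 list. The same 15 pairs made up 31.3% of the 48 KLF4 peaks (18.7 to 46.3), against 31.7% of the whole KLF4 list. HDAC3 peaks outnumbered KLF4 peaks at these genes by more than they did in the lists. Median score was 21 for the 98 HDAC3 peaks and 22 for the list, and 63 for the 48 KLF4 peaks and 65 for the list. Of the HDAC3 peaks, 47 (48.0%) stood within 4 tags of the calling threshold of 16, against 44.4% of the list, so many are near the limit of detection.

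**Figure D1:**
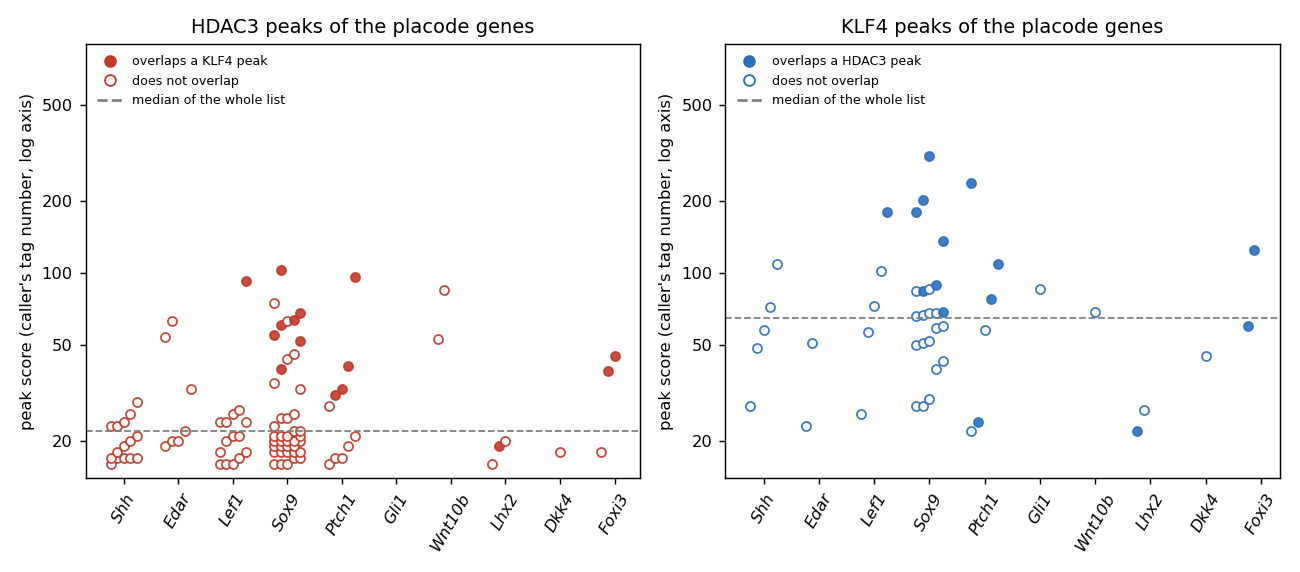
Score of every HDAC3 peak (left) and KLF4 peak (right) of the 10 placode genes, on log axes; each point is 1 peak, filled where it overlaps a peak of the other factor, and the dashed line is the median of the whole list. Most HDAC3 points lie near the median of 22, and the 15 filled points in each panel belong to Lef1, Sox9, Ptch1, Lhx2 and Foxi3.

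Several of the highest HDAC3 peaks at placode genes stood without KLF4. Above the 90th score percentile of the HDAC3 list, placode genes held 13 peaks, and 7 of them (53.8%, 25.1 to 80.8) overlapped KLF4, against 86.5% of the 5898 such peaks in the list. The other 6 were both gene-end peaks of Wnt10b, the gene-end peak of Sox9 with score 63, a Sox9 peak of score 75 at 129390 bp, and a pair inside Edar. The 5 KLF4 peaks above the 90th percentile of their own list, at Lef1, Sox9 and Ptch1, overlapped HDAC3 in 5 of 5 cases, against 68.4% of the list. These shares rest on few peaks and are given without a test.

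Wnt10b, a Wnt ligand of the early placode, had the strongest HDAC3 gene-end peak of the 10 genes. It lies at chr15:98770712-98778206 (GRCm38), on the minus strand. The HDAC3 peak at chr15:98778381-98778565 scored 85 (97.5th percentile), was 34.0-fold over an input of 2 tags, and was centred 267 bp outside the gene and 323 bp upstream of the transcription start listed by RefSeq. A further HDAC3 peak of score 53 at chr15:98770475-98770659, 7.63-fold over 5 input tags, was centred 145 bp beyond the opposite end, where the transcript ends. The 1 KLF4 peak, of score 69 and 10.7-fold over input, was 2806 bp outside the gene and 2539 bp from the stronger HDAC3 centre. HDAC3 therefore flanked Wnt10b closely on both sides, and KLF4 lay further upstream.

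The sequence before the Wnt10b start is shown because the HDAC3 peak reaches into it, and that of Ptch1 because an HDAC3 peak lies within 1 kb of its listed start. Lhx2 also had peaks within 1 kb of a listed start, its second, but the window before that start held no match and is not printed. Both are the 250 bases before a RefSeq start (GRCm38.p6), 5′ to 3′ on the minus strand, at chr15:98778151-98778400 and chr13:63565736-63565985. Capitals mark matches to GGGNGNGG on either strand, the letters of KLF and GC box type sites, with overlapping matches merged.
Wnt10b: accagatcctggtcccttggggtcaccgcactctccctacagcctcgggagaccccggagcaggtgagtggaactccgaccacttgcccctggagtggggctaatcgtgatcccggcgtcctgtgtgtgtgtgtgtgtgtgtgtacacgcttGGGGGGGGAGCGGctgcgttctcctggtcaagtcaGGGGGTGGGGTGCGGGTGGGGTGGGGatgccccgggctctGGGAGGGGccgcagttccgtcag
Ptch1: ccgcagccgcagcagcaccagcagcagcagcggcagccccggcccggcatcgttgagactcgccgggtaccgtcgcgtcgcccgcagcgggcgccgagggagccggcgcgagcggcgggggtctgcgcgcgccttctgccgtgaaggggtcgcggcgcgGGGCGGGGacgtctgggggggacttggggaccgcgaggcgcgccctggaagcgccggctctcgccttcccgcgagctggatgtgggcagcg
The Wnt10b window held 8 matches in 3 runs, and the first 20 bases, accagatcctggtcccttgg at chr15:98778381-98778400, are the part under the HDAC3 peak and hold none of them. The Ptch1 window held 1 match. Of all 32851 windows of this length, 45.9% held at least 1 match, and 7 of the 10 windows listed for 6 placode genes did, the most, 20, before a Lef1 start with no peak within 1 kb. The letters are common before starts, and no KLF4 peak was called over either window.

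Lef1, the transcription factor that carries Wnt signals to their targets, had many low HDAC3 peaks and 1 strong shared site. The gene lies at chr3:131110297-131224357 on the plus strand. Its 15 HDAC3 peaks scored from 16 to 93 with a median of 21, and its 5 KLF4 peaks scored 26, 57, 73, 102 and 180. The highest peak of each factor formed the single overlapping pair, 84508 bp below the gene for HDAC3. HDAC3 there scored 93 at chr3:131025697-131025881 (98.2nd percentile, 8.67-fold over input), and KLF4 scored 180 at chr3:131025665-131025849 (90.9th percentile, 14.3-fold), with centres 32 bp apart. Inside the gene 6 HDAC3 peaks of score 16 to 26 and 3 KLF4 peaks of score 26 to 102 kept apart from each other. The gene-end peak of HDAC3, of score 21, lay 429 bp past the transcript end, and the KLF4 peaks nearest to the listed starts were 4333 bp upstream of the first (score 73) and 2823 bp downstream of the third (score 57).

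Dkk4, a secreted Wnt antagonist made in placodes, had 1 peak of each factor in the short stretch of 19320 bp nearest to it. It lies at chr8:22623685-22628018, and its neighbour begins so close that 50 bp separate its higher end from the midpoint between them. The KLF4 peak scored 45, at 9929 bp, and the HDAC3 peak 18, at 9280 bp, with centres 649 bp apart and so not overlapping. A further KLF4 peak of score 48 was centred 3249 bp from Dkk4 but 3148 bp from Polb, and was left to Polb by the rule.

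Edar, the ectodysplasin receptor that stabilises placodes, was occupied by HDAC3 inside the gene. It lies at chr10:58600780-58675696 on the minus strand. Its HDAC3 peaks scored 19, 20, 20, 22, 33, 54 and 63. The 3 highest lay within the gene, 18341 to 33860 bp from its nearer end, the one of score 63 (10.5-fold over 4 input tags) at chr10:58652167-58652351 and the one of score 54 (17.9-fold over 2 input tags) at chr10:58641744-58641928. The 2 KLF4 peaks scored 51 and 23, one 13993 bp inside the gene and the other 15096 bp upstream of its start, and neither overlapped HDAC3. The strongest HDAC3 centre was 37486 bp from any KLF4 centre. The window before the Edar start held 1 match to CTTTGAT, a TCF/LEF type sequence that 3.21% of all windows hold on either strand. It was the only match to that sequence in the 10 placode windows, and none of the 10 held TGANTCA (AP-1 type, 6.75% of all windows) or GACCACCCA (GLI type, 0.225%).

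Foxi3, a forkhead factor gene induced by ectodysplasin signalling, had its shared sites far away on 1 side. It lies at chr6:70956606-70961066. HDAC3 scored 39 and KLF4 125 at a pair of sites centred 9 bp apart, 41174 bp from the gene for HDAC3. A pair centred 8 bp apart followed at 80089 bp, with 45 for HDAC3 (15.4-fold over input) and 60 for KLF4 (13.1-fold). Both KLF4 peaks of Foxi3 were thus shared, and the third HDAC3 peak, of score 18, was 618 bp from a KLF4 centre. The outer pair was also the placode site closest to the limit of the nearest-gene rule, with its HDAC3 centre 80089 bp from Foxi3 and 83434 bp from Rpl34-ps1.

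**Figure D2:**
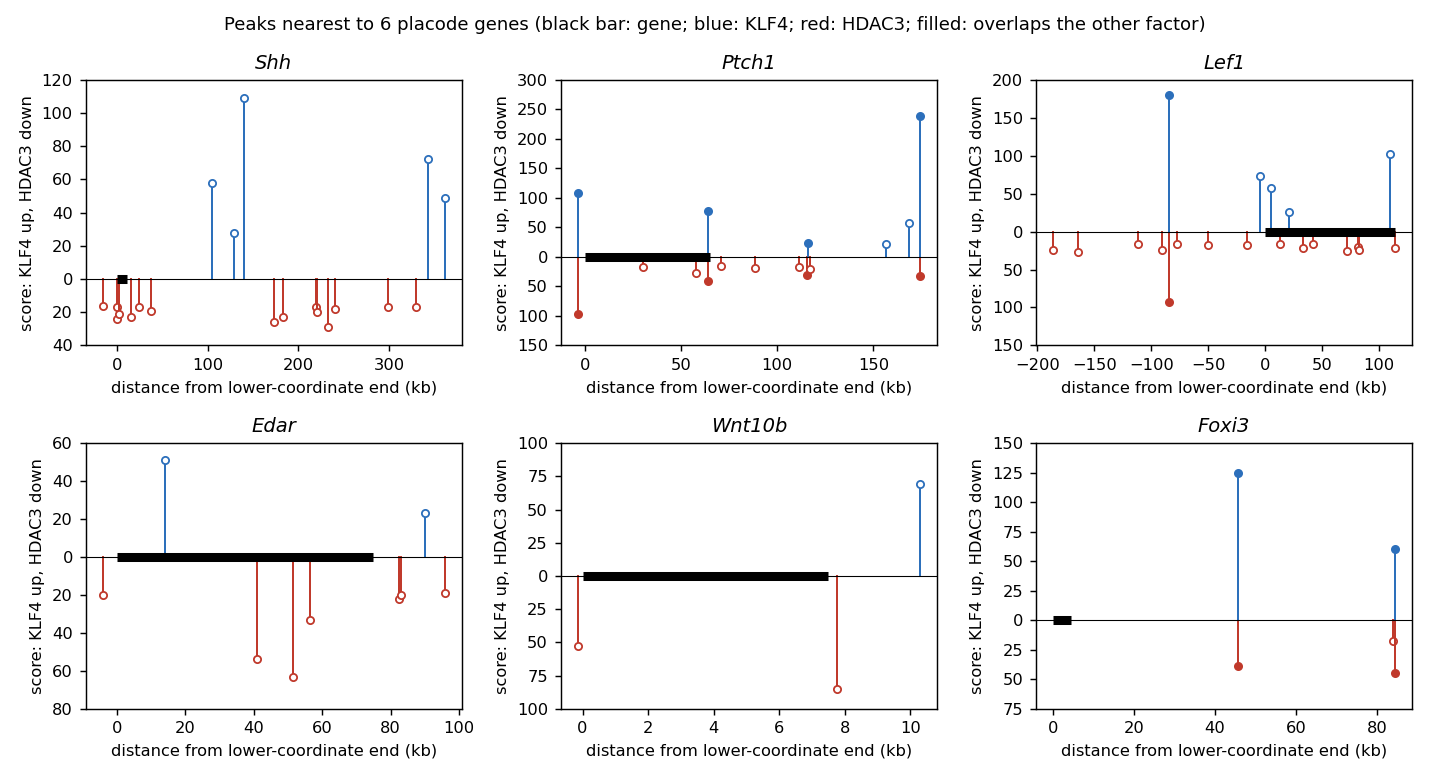
Peaks nearest to Shh, Ptch1, Lef1, Edar, Wnt10b and Foxi3 against distance from the lower-coordinate end of each gene in kb; KLF4 scores (blue) point up and HDAC3 scores (red) point down on axes that differ between genes, and filled points overlap the other factor. Every Shh, Edar and Wnt10b point is open, and the strongest Lef1 points of both factors coincide.

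Shh, the ligand that drives follicle downgrowth, had HDAC3 and KLF4 peaks that never met. It lies at chr5:28456840-28467101. Its 15 HDAC3 peaks were low, from 16 to 29 with a median of 19. A cluster of 3 lay at the lower end, with scores 24 (13.2-fold over 1 input tag) and 17 centred 871 and 374 bp outside the gene and 1 of score 21 inside it. The remaining HDAC3 peaks were 16338 bp below that end or above the gene out to 319245 bp. A KLF4 peak of score 39 was centred 36734 bp from Shh but was left to another gene by the rule. The 5 KLF4 peaks of Shh scored 28, 49, 58, 72 and 109, and began 93913 bp from the gene. The highest, at chr5:28596984-28597168, was 7.17-fold over input and 129975 bp away. No overlap occurred among the 20 peaks, and the closest HDAC3 and KLF4 centres were 13278 bp apart. Of the peaks above the gene, 9 of HDAC3 and 3 of KLF4 lay inside the noncoding gene 9530036O11Rik.

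Ptch1, the hedgehog receptor and itself a target of hedgehog signalling, had the most shared sites after Sox9. It lies at chr13:63508328-63573460 on the minus strand. The HDAC3 scores were 16, 17, 17, 19, 21, 28, 31, 33, 41 and 96 and the KLF4 scores 22, 24, 58, 78, 109 and 238, and 4 pairs overlapped. The strongest HDAC3 peak, of score 96 (98.4th percentile, 8.81-fold over input), was at chr13:63504652-63504836, 3584 bp past the transcript end, with KLF4 of score 109 at 13 bp. The strongest KLF4 peak, of score 238 (95.4th percentile, 18.6-fold), was 109145 bp upstream of the gene's outer end with HDAC3 of score 33 at 38 bp. Another pair was the one near 1 kb described above, and the fourth, 50567 bp out, had 31 for HDAC3 and 24 for KLF4. The order of the pairs by HDAC3 was thus not their order by KLF4. The listed start of Ptch1 is inside the annotated gene, and an HDAC3 peak of score 28 (19.1-fold over 1 input tag) was centred 592 bp upstream of it, with no KLF4 centre nearer to that start than 6730 bp.

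Gli1, the transcription factor gene most directly switched on by hedgehog signalling, had no HDAC3 peak. It lies at chr10:127329882-127341579 among close neighbours, with 13744 bp of sequence nearest to it. At the density over all protein-coding genes, that length would hold 0.296 HDAC3 and 0.241 KLF4 peaks. A KLF4 peak of score 86 (65.4th percentile, 6.33-fold over 6 input tags) lay inside it at chr10:127338976-127339160, 2511 bp from its end. The HDAC3 centre nearest to either end of Gli1 was 26044 bp away and belonged to another gene.

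Sox9, the transcription factor of follicle stem cells and of the outer root sheath, held 42 of the 98 HDAC3 peaks and 23 of the 48 KLF4 peaks. The gene, at chr11:112782210-112787757, sits in a gene desert, and 762048 bp are nearer to its ends than to those of any other protein-coding gene. HDAC3 scores ran from 16 to 103 with a median of 21, and KLF4 scores from 28 to 307 with a median of 67. At the gene itself HDAC3 stood alone: a peak of score 63 at chr11:112782091-112782275 was centred 27 bp outside the lower end, 37.2-fold over an input of 1 tag, and the nearest KLF4 centre was 14179 bp away. A weaker HDAC3 peak of score 19 lay 787 bp outside the higher end. No peak of either factor was inside Sox9.

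Shared Sox9 sites all lay more than 100 kb away. There were 7, of which 4 were below the lower end and 3 above the higher end. Below, a group of 3 spanned 148722 to 166372 bp from the gene with HDAC3 scores of 61, 52 and 68 and KLF4 scores of 307, 136 and 69. The one with KLF4 at 307, at chr11:112633389-112633573, was the highest KLF4 peak of any placode gene (97.9th percentile, 21.8-fold over input). The most distant pair, 430015 bp out, had 40 for HDAC3 and 180 for KLF4 with centres 4 bp apart. Above, the pair at 164700 bp had the highest HDAC3 score of the 10 genes, 103 (98.8th percentile) at chr11:112952365-112952549, with 201 for KLF4. The other two on that side had 55 and 84 at 115018 bp, and 64 and 89 at 134076 bp, where both factors were far over an input of 1 tag (44.0-fold and 39.8-fold).

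Around Sox9 the sides differed in their mix of peaks. The 527954 bp below the gene held 32 HDAC3 and 11 KLF4 peaks, or 6.06 and 2.08 per 100 kb. The 228547 bp above held 10 and 12, or 4.38 and 5.25 per 100 kb. Many of the HDAC3 peaks below the gene formed a long run of low scores. Between the shared sites at 166372 and 430015 bp, an interval chosen after the values were seen, there were 22 HDAC3 peaks. These scored 16 to 26 and did not overlap KLF4. The only KLF4 peaks inside the interval had scores of 28 and 68, which limits how many overlaps were possible. In the list, 18.9% of HDAC3 peaks at or below the 90th score percentile overlapped KLF4. Those peaks cover a wider range of scores than this run does. The peak of this run at chr11:112554126-112554310, of score 16, was centred 223 bp from a KLF4 centre of score 68. Whether the lack of overlap in this run is unusual was not tested. The highest unshared HDAC3 peak of Sox9, of score 75, was above the gene at chr11:112917055-112917239, 3696 bp from a KLF4 centre.

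**Figure D3:**
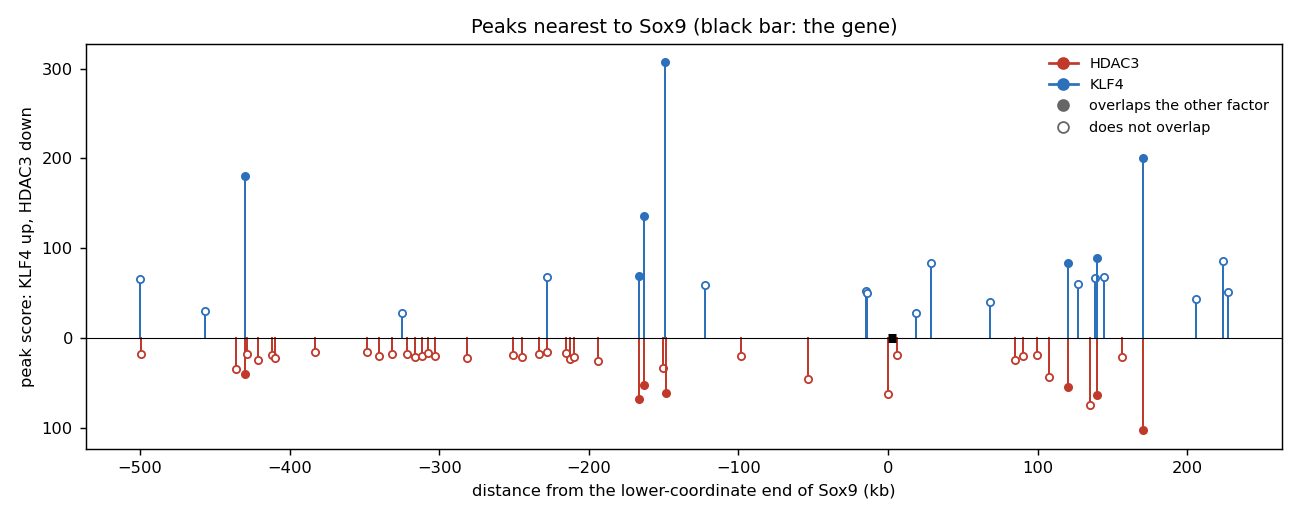
Peaks nearest to Sox9 against distance from its lower-coordinate end in kb, with KLF4 scores (blue) upward, HDAC3 scores (red) downward and filled points where the factors overlap. The 7 shared sites lie beyond 100 kb on both sides, as do most Sox9 peaks. The HDAC3 peak at the gene, of score 63, has no KLF4 point beside it.

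Lhx2, a LIM homeobox factor gene of the placode and follicle stem cells, had weak peaks. It lies at chr2:38339271-38369737 on the plus strand. HDAC3 scores were 16, 19 and 20 and KLF4 scores 22 and 27, all at or below the 44.4th percentile of their lists. One pair overlapped, with 19 for HDAC3 and 22 for KLF4 and centres 45 bp apart, each over 1 input tag. It lay inside the gene, 977 bp (HDAC3) and 932 bp (KLF4) downstream of the second start that RefSeq lists.

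Like the shared sites of the whole lists, the 15 placode ones were tightly superposed and higher than the rest. Their centres were 4 to 65 bp apart with a median of 32 bp, against 31 bp over all shared sites of the lists. The HDAC3 peaks of these sites scored 52 in the median and the 83 unshared ones 20, and the KLF4 peaks scored 109 and the 33 unshared ones 57. In the whole lists these medians were 43 and 20 for HDAC3, and 93 and 56 for KLF4. Of the 15 sites, 13 lay outside the placode gene they were assigned to. The 2 inside were those of Lhx2 and of Ptch1 at 1053 bp. Placode peaks as a whole were also mostly outside, with 14 of 98 for HDAC3 and 7 of 48 for KLF4 inside a protein-coding gene.

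**Figure D4:**
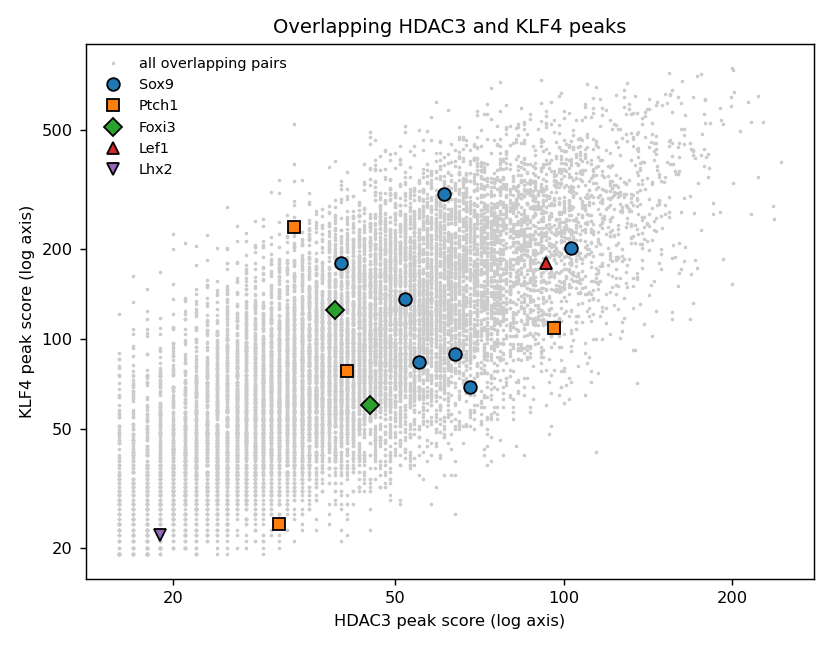
KLF4 score against HDAC3 score, on log axes, for the 15 overlapping pairs of placode genes (large symbols by gene) over all overlapping pairs of the lists (grey). The placode pairs run from 19 and 22 at Lhx2 to 103 and 201 at Sox9 and lie within the grey cloud.

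Per length of sequence, HDAC3 peaks were denser around the placode genes than around protein-coding genes as a whole. The 10 genes together are nearest to 2059786 bp, which held 4.76 HDAC3 peaks per 100 kb against 2.15 for all genes, a ratio of 2.21. For KLF4 the densities were 2.33 and 1.75, a ratio of 1.33. Without Sox9 the placode densities were 4.32 for HDAC3 and 1.93 for KLF4. Each gene with an HDAC3 peak was above the density of all genes, from 2.64 per 100 kb at Lhx2 to 11.7 at Wnt10b. The latter came from 2 peaks in 17116 bp. So little sequence is nearest to Wnt10b and to Dkk4 (5.18 per 100 kb from 1 peak) that any peak puts them above that density. Gli1, with 13744 bp, had no HDAC3 peak and is not among these genes. For KLF4, Shh (1.28), Edar (1.29) and Lef1 (1.62) were below it, and Gli1 stood highest (7.28) with 1 peak. Among peaks above the 90th percentile the HDAC3 ratio was 2.88 from 13 peaks, and 2.11 from 6 without Sox9. The KLF4 ratio was 1.38 from 5 such peaks, and 0.875 from 2 without Sox9.

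**Figure D5:**
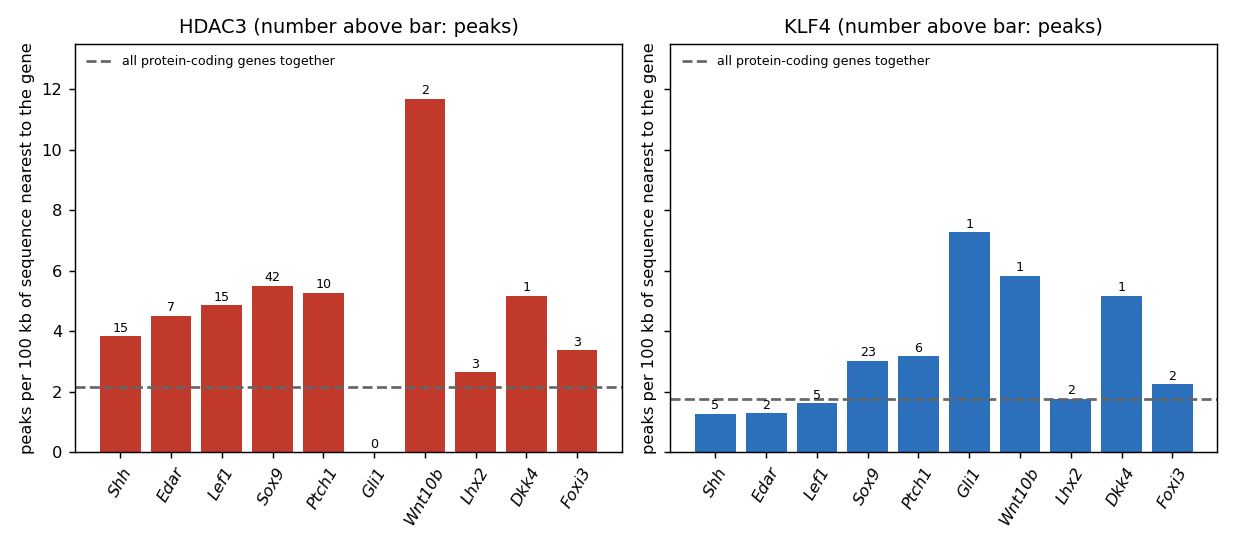
HDAC3 peaks (left) and KLF4 peaks (right) per 100 kb of sequence nearest to each placode gene, with the number of peaks above each bar; the dashed lines, 2.15 and 1.75, are the densities over all protein-coding genes. Bars of Wnt10b, Gli1 and Dkk4 rest on 1 or 2 peaks, and Gli1 has no HDAC3 bar.

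Many placode sites were distant, most of them around Sox9. More than 50 kb separated 60 of the 98 HDAC3 peaks (61.2%, 50.8 to 70.9) and 30 of the 48 KLF4 peaks (62.5%, 47.4 to 76.0) from the nearest gene end, against 32.4% and 23.8% of the lists. Without Sox9 the shares were 20 of 56 (35.7%) for HDAC3 and 11 of 25 (44.0%) for KLF4. Inside protein-coding genes lay 14.3% of the HDAC3 and 14.6% of the KLF4 peaks, against 49.8% and 51.5% of the lists. Without Sox9 these were 14 of 56 (25%) and 7 of 25 (28%). Such shares depend on how much of the sequence nearest to a gene is the gene itself, at Sox9 5548 of 762048 bp. Whether they differ from what those lengths would give was not tested. Another 22 HDAC3 peaks (22.4%) and 7 KLF4 peaks (14.6%) were inside noncoding genes alone, against 9.36% and 9.58% of the lists. Of the 60 HDAC3 peaks beyond 50 kb, 40 were those of Sox9, as were 35 of the 47 HDAC3 peaks beyond 100 kb.

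Other genes of the same pathways were described from 5 lists with 125 genes, to be read against the 18.9% and 23.1% of all genes with a gene-end peak of HDAC3 and KLF4 and the 10.3% with both. Of 14 other hedgehog genes, 5 had HDAC3 and 1 had KLF4 at an end. The one with both was Dhh, a hedgehog ligand gene, with 40 for HDAC3 and 77 for KLF4 at one site, 560 bp from Dhh for HDAC3 and nearer still to another gene. Gas1, a hedgehog coreceptor gene, had HDAC3 alone (34), as had Gli3 (21), Kif7 (21) and Cdon (18).

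Wnt genes had each factor at the ends of 14 of 44, and both at 10. The highest was Rnf43, a membrane ubiquitin ligase that removes Wnt receptors, with 77 for HDAC3 and 136 for KLF4 centred 32 bp apart. Sostdc1, a secreted antagonist of Wnt and BMP, had 55 and 104 centred 29 bp apart, and the ligand gene Wnt4 had 38 and 135, also 29 bp apart. Gsk3b, the kinase of the beta-catenin destruction complex, had 41 and 73 as its highest gene-end scores, 1033 bp apart, and a further KLF4 centre lay 13 bp from the HDAC3 one. Wnt10b, Lef1 and Dkk4 had no such site.

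Of 11 ectodysplasin pathway genes, 4 had HDAC3, 5 had KLF4 and 2 had both at an end. Those with both were Tnfrsf19, a receptor related to EDAR (47 and 52, centred 373 bp apart), and Cyld, a deubiquitinase of NF-kB signalling (21 and 71, at different ends). Edaradd, the adaptor of EDAR, had KLF4 alone (38), and Ikbkg, the NEMO subunit that passes the signal to NF-kB, had KLF4 alone (111). Of 17 Fgf and Bmp genes, 4 had HDAC3 and 2 had KLF4 at an end, and 0 had both. Fgf20, an early placode signal, was among the HDAC3 genes (20). The highest peaks of that list were at Id1, a BMP target, with KLF4 of 481 at 9305 bp and HDAC3 of 132 at 4316 bp.

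Of 39 further regulators and markers of the placode and follicle, 15 had HDAC3, 11 had KLF4 and 10 had both at an end. Gjb6, a connexin gene, had 141 for HDAC3 and 242 for KLF4 centred 25 bp apart, and Krt17, a keratin gene of the placode and outer root sheath, had 89 and 194 centred 43 bp apart. Foxn1, a forkhead factor gene of the hair shaft, had 44 and 87 centred 49 bp apart. Nfix, a factor gene of follicle stem cells, had 34 and 74 as its highest gene-end scores, at opposite ends of the gene, and a further KLF4 centre lay 16 bp from the HDAC3 one.

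Marker genes were read the same way, although occupancy does not show expression. Keratinocyte markers had HDAC3 at an end in 4 of 12 cases and KLF4 in 6. The numbers were 3 and 1 of 10 for dermal fibroblast and papilla markers, 2 and 2 of 8 for melanocyte markers, 1 and 0 of 7 for immune markers, and 0 and 0 of 6 for endothelial markers. The share of follicle cells or of other cell types in the chromatin was not tested.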

How the data were processed

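Chromatin immunoprecipitation and sequencing were done on 3 libraries, grouped by antibody: input, HDAC3 and KLF4, 1 each. The authors worked with HOMER, STAR and bcl2fastq on GRCm38.p5 per the submitters' processing notes, with no tool versions given in the sources used here. HOMER, per the file headers, called peaks of 185 bp separately for each precipitation against the input, with a minimum of 4-fold over the input and over 10 kb around, a false discovery rate of 0.001 and a p-value limit of 1e-04 (Poisson). In the deposited lists the signal columns are tags scaled by the authors to 1 common library total and to the input total, and an input of 0 appears as 0.5. The deposited score is a tag number from the caller, the deposited fold columns are ratios, the central tag share is a fraction, and the p-value columns come from the authors' caller and entered no test.

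Peaks on chromosomes (57920 and 47140) were placed on 49943 RefSeq genes of GRCm38.p6, 21887 of them protein-coding. That table has no strand. Starts and strands came from RefSeq windows that list 6 of the 10 genes, so starts of Shh, Sox9, Gli1 and Dkk4 were not used. The length nearest to a gene runs to the midpoints between neighbouring gene ends. Code for nearest ends, overlaps and lengths was tested on simulated data (Python 3.11.15, pandas 2.3.3, scipy 1.17.1). Members, lists and rules were chosen with earlier results of these data known. All 10 genes are described, with their gene-end, highest and shared peaks; from each pathway list up to 4 genes with both factors at an end were named, and further genes were named after their values were seen. Of the listed symbols, 2 were older names of genes already listed. Alternatives changed the fold, score, window, overlap and nearest-gene rules.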

Additional observations from a re-analysis of the deposited data

How the results depend on the processing

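Of 52 alternative values, 28 stayed within 1.5 times a count or within the 95% interval of a share or median, and 24 moved. Peaks at least 8-fold over input left 40 HDAC3 and 24 KLF4 peaks, no gene with a KLF4 gene-end peak (0 of 10), and 14 and 16 pathway genes with HDAC3 and KLF4 at an end, against 42 and 33. The upper 50% of each list by score left 43 and 24 peaks, with 27.9% of HDAC3 and 50% of KLF4 peaks overlapping, median score percentiles of 76.6 and 65.4, and 16 pathway genes with KLF4; fewer peaks and their higher scores follow from that choice. With the nearest end of any annotated gene, noncoding ones included, 27 HDAC3 and 11 KLF4 peaks remained with the placode genes, 7.41% and 18.2% of them overlapping. A window of 500 bp left 0 genes with KLF4 at an end. A window of 5 kb gave 7 genes with HDAC3, 5 with KLF4 and 3 with both, and 78 and 61 pathway genes. Shares of all genes are given for the main settings only, so none stands beside the counts of these alternatives. Both factors were at 1 gene with the 1.1 kb window (Ptch1), which like the pathway alternatives was chosen after seeing the data, and at 1 gene with listed transcription starts (Lhx2). No paired analysis was possible because each antibody had 1 library, and no library could be left out. Fold over input is imprecise for the 29 HDAC3 and 7 KLF4 peaks with at most 1 input tag.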
